A study of Mus musculus with 15 samples.

Results

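Bile acid genes of the mouse liver were followed in the RNA-seq libraries of Stab1 knock-out and wildtype animals at the embryonic stage E17.5 and at 2 weeks of age. The set held 10 genes, found by their symbols among the 19464 rows of the deposited table, each on 1 row. They were Cyp7a1, Cyp8b1, Cyp27a1, Cyp7b1, Baat, Slc27a5, Slc10a1, Abcb11, Nr1h4 and Nr0b2. The rule that found their rows used symbols and no measured value, but the set was chosen with earlier results of these data known. The study compared liver RNA of 4 wildtype and 4 Stab1-/- animals at 2 weeks, and of 4 wildtype and 3 Stab1-/- animals at E17.5. Stab1 encodes Clever-1, a scavenger receptor of sinusoidal endothelium and macrophages, and in Stab1-/- mice the gene is disrupted in all cells and not in a chosen cell type. The strain background given for all animals was C57BL/6N;129SvJ, which alone does not show that the genotypes were alike at other loci. The labels name no treatment, and neither the labels nor the methods state that the genotypes were littermates. Whole liver was sequenced, so that fewer hepatocytes and less RNA per hepatocyte cannot be told apart.

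Bile acids are made from cholesterol in hepatocytes. The classic route starts with CYP7A1, the rate-limiting 7-alpha-hydroxylase, and CYP8B1 then sets how much of the product carries the 12-alpha-hydroxyl group of cholic acid. The alternative route starts with the mitochondrial sterol 27-hydroxylase CYP27A1, followed by the oxysterol 7-alpha-hydroxylase CYP7B1. SLC27A5 joins coenzyme A to bile acids and BAAT then conjugates them to taurine or glycine. The transporter NTCP, encoded by Slc10a1, takes bile acids up from portal blood, and the bile salt export pump, encoded by Abcb11, secretes them into the canaliculus. Bile acids activate the nuclear receptor FXR (Nr1h4), which induces Abcb11 and the corepressor SHP (Nr0b2), and SHP in turn restrains Cyp7a1 and Cyp8b1.

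Promoter sequence was on hand for 6 of the 10 genes in RefSeq's table (build GRCm38.p6), and 3 are shown because they hold nuclear receptor motifs and the results turn on their genes. Nr0b2 had the largest age difference, and Abcb11 is the pump that FXR is known to induce. The ratio of Cyp8b1 to Cyp7a1 parted the 2-week genotypes, although neither gene was called. Each line gives the 250 bases before the annotated start in the direction of the gene, with motif letters in capitals. No promoter was printed for Cyp7a1, Cyp7b1, Baat and Slc27a5.
Abcb11, chr2:69342617-69342866, minus strand: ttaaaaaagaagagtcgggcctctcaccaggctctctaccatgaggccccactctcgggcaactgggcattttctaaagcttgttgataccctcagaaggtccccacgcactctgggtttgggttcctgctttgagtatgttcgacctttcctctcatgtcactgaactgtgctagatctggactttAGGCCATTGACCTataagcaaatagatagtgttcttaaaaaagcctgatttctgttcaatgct
Nr0b2, chr4:133553126-133553375, plus strand: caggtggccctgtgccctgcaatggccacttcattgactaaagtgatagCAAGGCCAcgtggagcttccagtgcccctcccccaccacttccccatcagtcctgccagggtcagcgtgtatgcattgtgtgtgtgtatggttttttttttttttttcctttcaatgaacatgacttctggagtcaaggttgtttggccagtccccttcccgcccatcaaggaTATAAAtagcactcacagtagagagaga
Cyp8b1, chr9:121916306-121916555, minus strand: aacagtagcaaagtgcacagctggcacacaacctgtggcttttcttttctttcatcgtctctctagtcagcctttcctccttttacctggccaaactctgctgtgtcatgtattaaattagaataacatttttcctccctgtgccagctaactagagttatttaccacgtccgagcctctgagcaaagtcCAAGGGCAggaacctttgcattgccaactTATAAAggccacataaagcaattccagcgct
The motifs searched on both strands were the nuclear receptor element AGGTCA, the looser form AGGNCA as an inverted repeat with 1 base between the arms (the arrangement FXR is known to bind), AGGNCA as a direct repeat with 1 base between, the extended element CAAGGNCA that LRH-1 (Nr5a2) is known to bind, the HNF1 palindrome with the arm TTAAT and 1 base between the arms, and the TATA box TATAAA. In Abcb11 the inverted repeat AGGCCATTGACCT lay at -63 to -51, counted back from the start, and its right arm is also a match to AGGTCA on the other strand. This inverted repeat occurred in 0.0852% of 32851 promoter windows of the same length. In Nr0b2 the extended element CAAGGCCA lay at -201 to -194 and in Cyp8b1 CAAGGGCA lay at -60 to -53, and 5.53% of the windows held such an element. Both of these promoters also had TATAAA, at -28 to -23 in Nr0b2 and at -31 to -26 in Cyp8b1, as did 12.4% of all windows. Among the other promoters on hand, Nr1h4 and 1 of the 2 promoters of Slc10a1 held AGGTCA, which 14% of the windows held, the other Slc10a1 promoter held TATAAA on the opposite strand, and the Cyp27a1 window held none of the 6 motifs. The direct repeat and the HNF1 palindrome, which 0.338% and 0.116% of the windows held, were in none of the 7 promoters on hand. These matches describe the sequence and do not show binding.

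Each library had between 9.66 M and 10.96 M reads counted on genes. The level of a gene is given as RPKM, its reads divided by the listed gene length in kilobases and by the depth of the library on genes, and values after ± are SDs. Fold changes between groups come from the read counts, on the log2 scale with the standard error (SE), from edgeR's quasi-likelihood test with TMM scaling, and a gene is called when its Benjamini-Hochberg adjusted p over all tested rows is under 0.05. Stab1 itself had 68 to 119 reads in the Stab1-/- libraries and 579 to 941 in the wildtype libraries at 2 weeks, and 301 to 443 against 1244 to 1868 at E17.5, so that each library matched its labelled genotype. All 15 hepatocyte markers had reads in every group, with a summed level of 84600 to 154000 RPKM over the 15 libraries. At E17.5 the libraries also carried other tissue. Stab1-/- replicate 1 had intestinal markers, with Cdx2 at 11.2, Vil1 at 28.9 and Guca2a at 59.9 RPKM where the other E17.5 libraries of either genotype had at most 0.836, 2.84 and 3.20. These markers were singled out after their values were seen. All 11 intestinal markers in the table summed to 410 RPKM in it and to 117 to 177 RPKM in the other E17.5 libraries. Clca1 of that list was not higher in Stab1-/-, at 7.45 to 8.77 against 8.33 to 9.56 RPKM. The highest of the other values were all in Stab1-/- replicate 3, with 19 reads each of Cdx2 and Guca2a. Values without replicate 1 may thus still hold intestinal RNA. The 9 pancreatic markers summed to 2790 RPKM in wildtype replicate 2 and to 13.0 to 262 RPKM in the other E17.5 libraries. At 2 weeks wildtype replicate 1 stood apart from the other wildtype libraries in several bile acid genes, and for several values that rest on it the value without it is given as well.

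All 10 bile acid genes were higher at 2 weeks than at E17.5 in wildtype livers and again in Stab1-/- livers. In wildtype the log2 fold changes ran from 1.27 for Cyp7a1 to 6.94 for Nr0b2, and in Stab1-/- from 0.88 for Cyp8b1 to 6.46 for Nr0b2. Their median was 2.50 in wildtype and 2.28 in Stab1-/-, where the median of all tested rows was -0.03 and -0.02. Much of the transcriptome differed between these ages. Of 13885 tested rows, 71.9% were called in wildtype and 72.3% in Stab1-/-, 34.4% and 35.4% of all rows as higher at 2 weeks. The E17.5 liver is also a blood-forming organ, and the summed level of 14 erythroid markers was 21600 to 23800 RPKM in wildtype and 19400 to 25700 in Stab1-/- at E17.5 against 433 to 1220 and 703 to 1450 at 2 weeks. The 15 hepatocyte markers had a median log2 fold change of 1.04 in wildtype and 1.01 in Stab1-/-, with 11 and 8 of them called higher. How far the loss of erythroid RNA and the gain of hepatocyte RNA carry the bile acid genes was not tested. When libraries were scaled by their totals in place of TMM, the median of all rows moved to -0.38 in wildtype and -0.25 in Stab1-/- and the higher share of the calls fell from 47.9% to 31.5% and from 48.9% to 38%, with all 10 bile acid genes still called higher. The 10 genes stayed called in both genotypes under every alternative and with any 1 library left out.

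**Figure D1:**
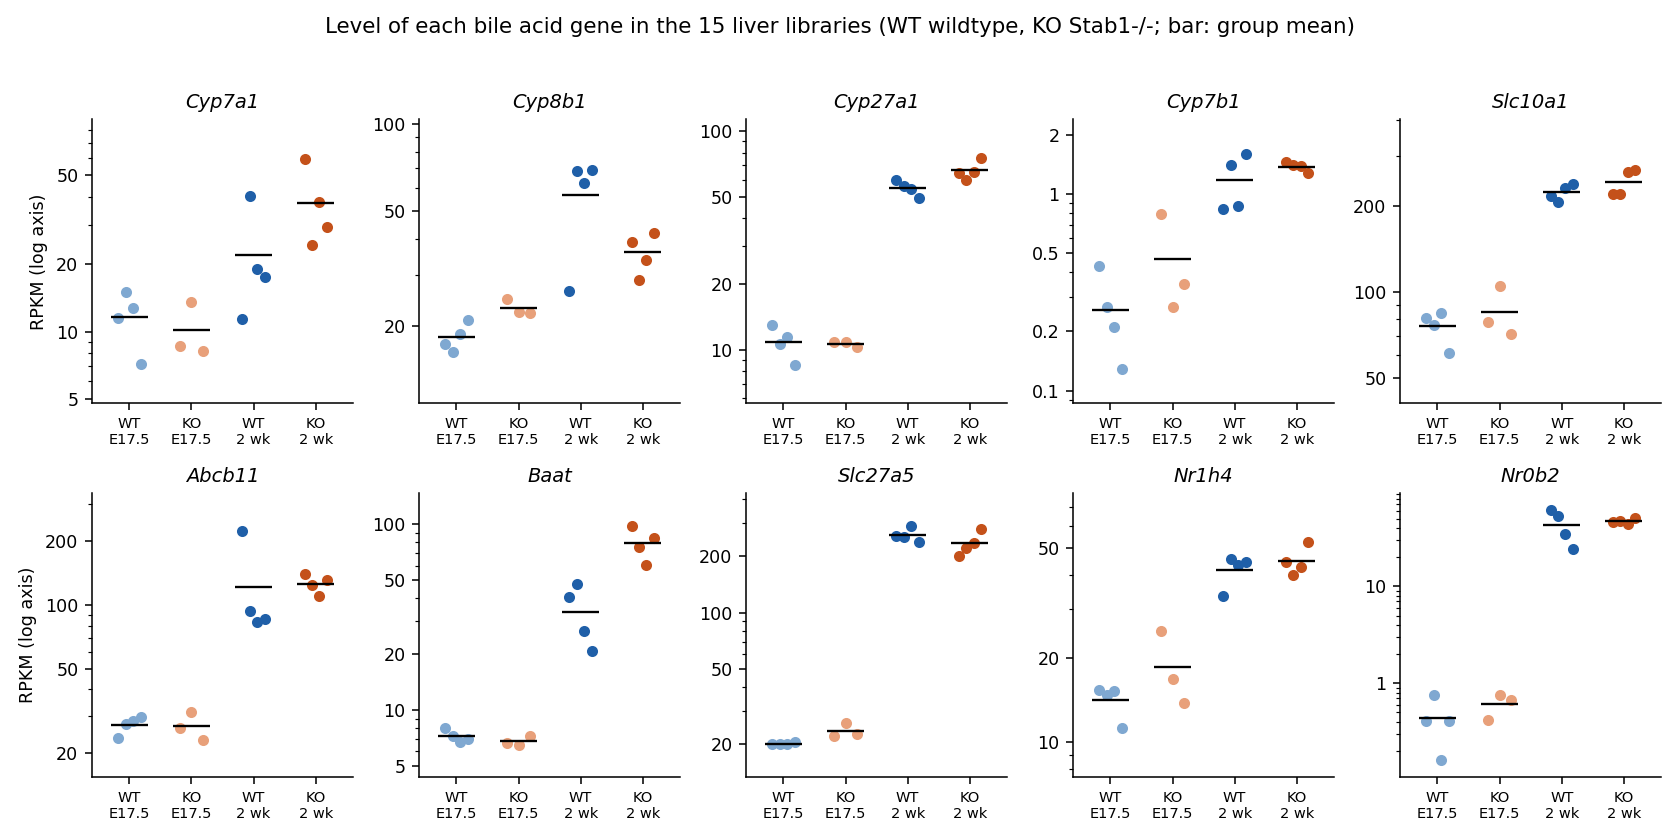
RPKM of the 10 bile acid genes on log axes, 1 point per library and 1 bar per group mean, for wildtype (WT, 4 libraries per age) and Stab1-/- (KO, 3 libraries at E17.5 and 4 at 2 weeks). In 9 genes the 2-week points of both genotypes lie above the E17.5 points, while the wildtype points of Cyp7a1 overlap between ages.

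Of the classic route, Cyp7a1 was the less separated between ages in wildtype livers and Cyp8b1 in Stab1-/- livers. The level of Cyp7a1 was 11.5, 15, 12.7 and 7.15 RPKM in the wildtype E17.5 libraries and 11.4, 40.5 and 19.0 RPKM in wildtype 2-week replicates 1 to 3, with replicate 4 just below replicate 3. Wildtype replicate 1 at 2 weeks lay within the E17.5 range, and replicate 2 stood well above its group. In Stab1-/- livers Cyp7a1 was 8.61, 13.5 and 8.21 RPKM at E17.5 and 59.2, 24.3, 37.9 and 29.2 RPKM at 2 weeks, with no overlap. The log2 fold change with age was 1.27 (SE 0.35, edgeR adjusted p = 0.00334) in wildtype and 2.10 (SE 0.39, edgeR adjusted p = 0.000135) in Stab1-/-. Without wildtype replicate 2 of the 2-week group the wildtype value was 0.82 (edgeR adjusted p = 0.0214). Cyp8b1, the sterol 12-alpha-hydroxylase, was at 17.3, 16.2, 18.8 and 21.0 RPKM in wildtype E17.5 livers and at 26.4, 68.6, 62.3 and 68.9 RPKM in wildtype 2-week livers. Here replicate 1 was the low library of the 2-week group but still above every E17.5 library. In Stab1-/- livers it was 24.7, 22.3 and 22.1 RPKM at E17.5 and 38.9, 28.9, 33.9 and 42.0 RPKM at 2 weeks. The log2 fold change was 1.98 (SE 0.23) in wildtype and 0.88 (SE 0.25) in Stab1-/-, the smallest of the 10 genes in that genotype. Without wildtype replicate 1 of the 2-week group the wildtype value of Cyp8b1 was 2.23 (SE 0.12).

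The genes of the alternative route differed in level by more than an order of magnitude. Cyp27a1 was 13.0, 10.6, 11.4 and 8.51 RPKM in wildtype and 10.8, 10.9 and 10.3 RPKM in Stab1-/- at E17.5, and reached 59.9, 56.1, 54.5 and 49.5 RPKM and 64.5, 59.6, 65.4 and 75.6 RPKM at 2 weeks. Its log2 fold change with age, 2.68 (SE 0.13) in wildtype and 2.87 (SE 0.15) in Stab1-/-, had one of the narrowest errors of the 10 genes in both genotypes. Cyp7b1 had the lowest mean RPKM of the set at either age, although Nr0b2 was lower in 3 of the 7 E17.5 libraries. It had 3 to 10 reads in the wildtype and 6 to 18 reads in the Stab1-/- E17.5 libraries (0.129 to 0.429 and 0.265 to 0.790 RPKM), and 19 to 37 and 27 to 32 reads at 2 weeks (0.838 to 1.60 and 1.28 to 1.45 RPKM). The highest E17.5 value was in Stab1-/- replicate 1, the library with intestinal markers. From the summed reads per depth, Cyp7b1 was 4.54-fold higher at 2 weeks in wildtype (95% counting interval 2.90 to 7.40) and 2.95-fold higher in Stab1-/- (1.98 to 4.50), where intervals cover counting error only. Without Stab1-/- replicate 1 of the E17.5 group the value in Stab1-/- was 4.49-fold (2.58 to 8.47).

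Both conjugation genes rose steeply. Slc27a5 was close to constant in the wildtype E17.5 livers, at 20, 20, 20.1 and 20.4 RPKM, and was 22.2, 25.9 and 22.5 RPKM in Stab1-/-. At 2 weeks it had 256, 252, 287 and 237 RPKM in wildtype and 199, 221, 234 and 278 RPKM in Stab1-/-, a log2 fold change of 4.03 (SE 0.14) and 3.54 (SE 0.15). Baat was at 8.01, 7.27, 6.74 and 7.01 RPKM in wildtype and 6.69, 6.53 and 7.26 RPKM in Stab1-/- E17.5 livers. Its 2-week level was 40.6, 47.5, 26.6 and 20.7 RPKM in wildtype and 98.0, 75.3, 60.6 and 84.2 RPKM in Stab1-/-, so that the log2 fold change with age was 2.56 (SE 0.21) and 3.77 (SE 0.25). After the increase the wildtype libraries were spread over more than a factor of 2, whereas at E17.5 the coefficient of variation of Baat had been 7.49%.

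The uptake transporter gene Slc10a1 led the set at E17.5, with 80.7, 76.3, 84.6 and 60.9 RPKM in wildtype and 78.3, 105 and 70.9 RPKM in Stab1-/-. At 2 weeks it had 217, 207, 231 and 239 RPKM in wildtype and 221, 221, 264 and 268 RPKM in Stab1-/-, and the log2 fold change was 1.91 (SE 0.15) and 1.75 (SE 0.17). Abcb11, the canalicular export pump whose promoter holds the inverted repeat shown above, was 23.7, 27.4, 28.5 and 29.5 RPKM in wildtype and 26.4, 31.2 and 23.1 RPKM in Stab1-/- at E17.5. Its 2-week level was 225, 93.7, 82.9 and 86.4 RPKM in wildtype and 140, 124, 110 and 132 RPKM in Stab1-/-. Wildtype replicate 1 was here the highest of all 15 libraries. The log2 fold change of Abcb11 with age was 2.50 (SE 0.25) in wildtype and 2.46 (SE 0.28) in Stab1-/-, and without wildtype replicate 1 of the 2-week group, where the other 3 libraries lay between 82.9 and 93.7 RPKM, the wildtype value was 2.05 (SE 0.12). In the GENCODE annotation of GRCm38, 155 exonic bases of Abcb11 lie under Gm13613 and Gm13614 on the opposite strand, and reads there could not be told apart if strand was not used in counting. No exon of another gene lay over the other 9 genes.

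The receptor and its corepressor behaved differently. Nr1h4 was 15.4, 14.8, 15.2 and 11.2 RPKM in wildtype E17.5 livers and 25.2, 16.8 and 13.8 RPKM in Stab1-/- E17.5 livers, and rose to 33.5, 45.5, 43.5 and 44.5 RPKM and to 44.3, 40.0, 42.5 and 52.4 RPKM at 2 weeks. The log2 fold change was 1.91 (SE 0.17) in wildtype and 1.52 (SE 0.18) in Stab1-/-. Nr0b2, by contrast, was close to the detection limit at E17.5, with 5, 9, 2 and 5 reads in the wildtype and 5, 9 and 8 reads in the Stab1-/- libraries. At 2 weeks it had 721, 594, 415 and 293 reads (60.8, 52.9, 34.5 and 24.2 RPKM) in wildtype and 520, 560, 481 and 559 reads (46.5, 46.7, 44.0 and 50.7 RPKM) in Stab1-/-. Reads covered 8.65% to 35.48% of the gene model at E17.5 and 94.26% to 99.38% at 2 weeks. From summed reads per depth the increase was 99.1-fold in wildtype (95% counting interval 64.7 to 160.0) and 76.4-fold in Stab1-/- (50.3 to 122.0). It was the largest increase of the 10 genes in either genotype, and the TMM-scaled log2 value was 6.94 (SE 0.34) and 6.46 (SE 0.36).

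**Figure D2:**
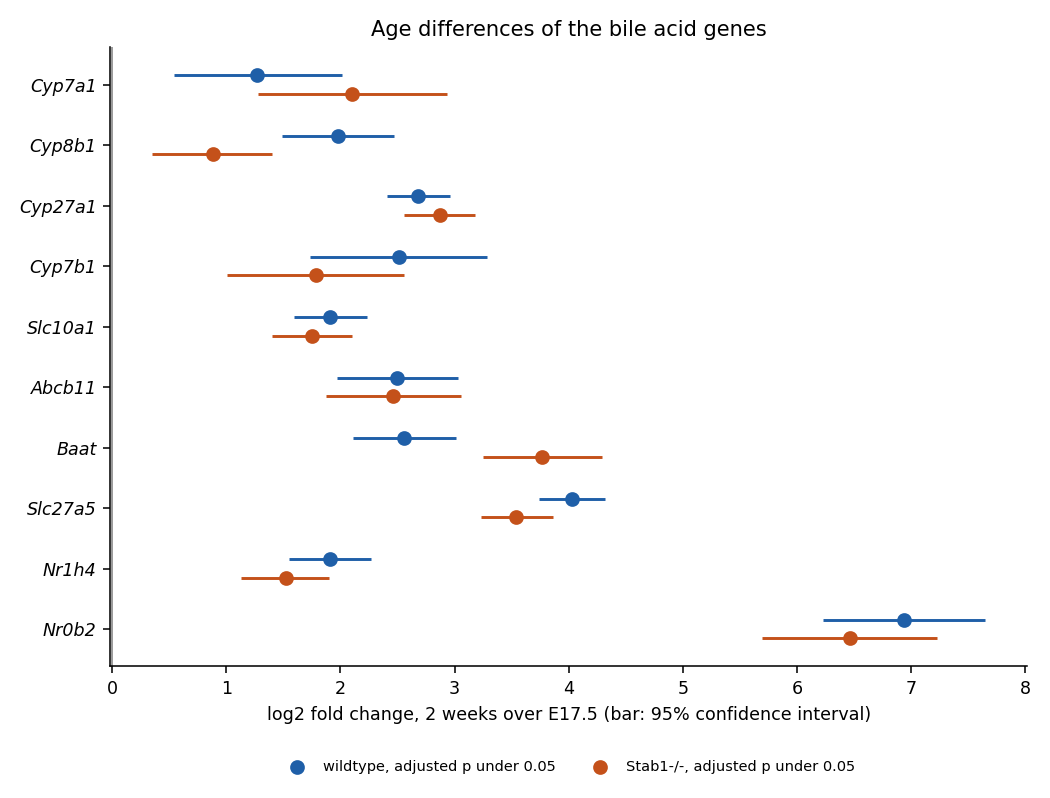
Log2 fold change at 2 weeks over E17.5 for each bile acid gene (points, with 95% confidence intervals) in wildtype and Stab1-/- livers, from edgeR. All 20 points lie above 0 and are called. The genotypes stand furthest apart in Baat (2.56 and 3.77) and in Cyp8b1 (1.98 and 0.88).

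In RPKM the age groups did not overlap in 9 of the 10 genes in wildtype and in 10 of 10 in Stab1-/-, always with the higher values at 2 weeks. Over all tested rows, 20.9% in wildtype and 27.4% in Stab1-/- had groups apart in that direction. The order of the genes by level per length also shifted with age. At E17.5 the wildtype means fell from Slc10a1 (75.6 ± 10.4 RPKM, n = 4) over Abcb11 (27.3 ± 2.56) and Slc27a5 (20.1 ± 0.204) to Cyp8b1 (18.3 ± 2.10), Nr1h4 (14.1 ± 1.96), Cyp7a1 (11.6 ± 3.31), Cyp27a1 (10.9 ± 1.86) and Baat (7.26 ± 0.543), with Nr0b2 (0.436 ± 0.246) and Cyp7b1 (0.258 ± 0.127) last. Among neighbours in this order the libraries of Slc27a5 and Cyp8b1, of Nr1h4 and Cyp7a1, of Cyp7a1 and Cyp27a1, and of Nr0b2 and Cyp7b1 overlapped. At 2 weeks Slc27a5 (258 ± 21.1 RPKM, n = 4) stood first in wildtype, overlapping with Slc10a1 (223 ± 14.1), and only the steps from Abcb11 (122 ± 69.0) to Cyp8b1 (56.5 ± 20.3) and from Cyp7a1 (22.1 ± 12.7) to Cyp7b1 (1.18 ± 0.382) were free of overlap. The overlap of Slc10a1 with Abcb11 rested on wildtype replicate 1, with Abcb11 at 225 RPKM where the other wildtype libraries had 82.9 to 93.7. In 2-week Stab1-/- livers Baat held place 4, directly behind Abcb11 and without overlap with it, where it held place 8 in wildtype. Baat did overlap there with Cyp27a1, the next in order. Cyp8b1 held place 9 in Stab1-/-, where it overlapped with Cyp7a1 at place 8, and place 4 in wildtype.

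The genotypes were then compared within each age, the question for which the libraries were made. At 2 weeks Baat was the only one of the 10 genes that was called, and it was higher in Stab1-/- livers. Baat is also in the study's own list of genes upregulated in 2-week Stab1-/- liver, drawn from the same libraries. Its mean level was 79.5 ± 15.7 RPKM in Stab1-/- against 33.8 ± 12.3 in wildtype livers (n = 4 each), a ratio of 2.35. All 4 Stab1-/- libraries lay above all 4 wildtype libraries, the lowest of the former at 60.6 and the highest of the latter at 47.5 RPKM, as was so for 10.4% of all tested rows in that direction. The log2 fold change was 1.15 (SE 0.22, 95% confidence interval 0.68 to 1.63, edgeR adjusted p = 0.0188). Of 12716 rows tested at 2 weeks, 340 or 2.67% were called and 0.936% were called as higher in Stab1-/-, beside which 1 of 10 genes is a small count. The higher share of all calls was 35% with TMM, 48.8% in DESeq2 and 53.7% when scaled by library totals, and Baat was called higher in each. Baat was not called by edgeR when Stab1-/- replicate 1 (log2 fold change 1.06, adjusted p = 0.0684), Stab1-/- replicate 4 (1.10, adjusted p = 0.0576) or wildtype replicate 3 (1.07, adjusted p = 0.0603) was left out.

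**Figure D3:**
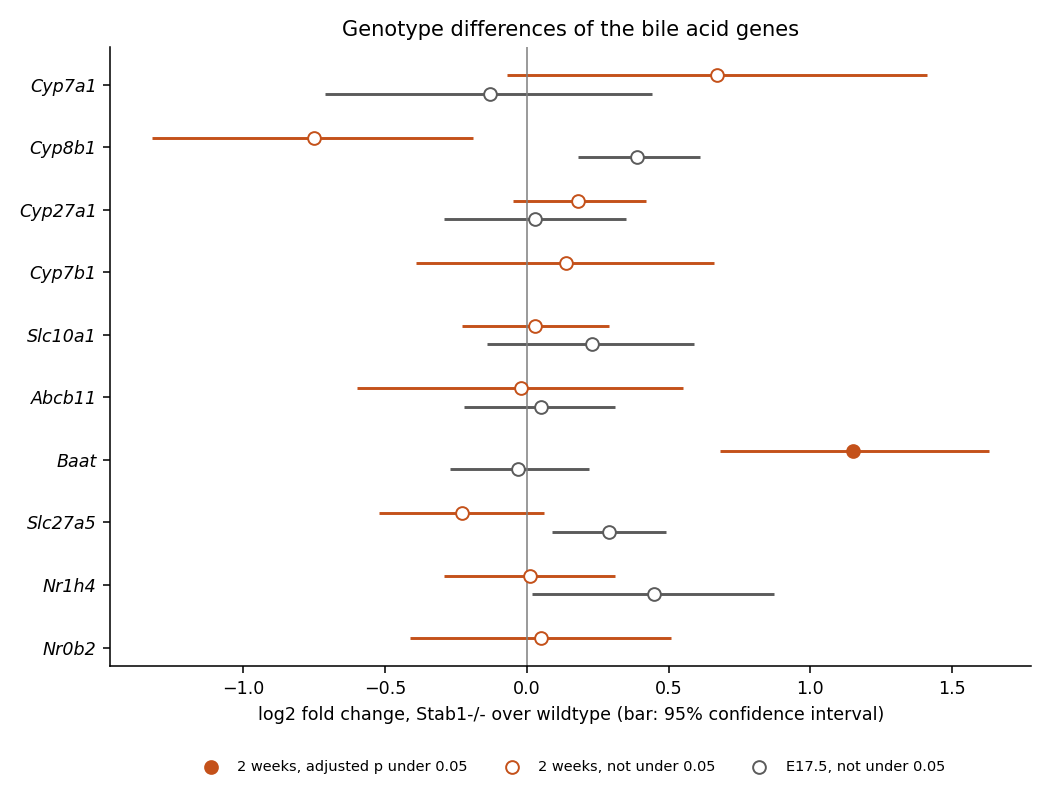
Log2 fold change of Stab1-/- over wildtype for each bile acid gene at 2 weeks and at E17.5, with 95% confidence intervals from edgeR, filled where the adjusted p is under 0.05. Baat at 2 weeks (1.15) is the filled point. Cyp7b1 and Nr0b2 have no E17.5 value because the filter on low counts left them out there.

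The hydroxylases of the classic route gave values on opposite sides of 0 at 2 weeks, and neither was called. Cyp8b1 had a log2 fold change of -0.75 (SE 0.26, 95% confidence interval -1.32 to -0.19, edgeR adjusted p = 0.12), with 35.9 ± 5.75 RPKM in Stab1-/- against 56.5 ± 20.3 in wildtype livers (n = 4 each). Wildtype replicates 2 to 4 lay between 62.3 and 68.9 RPKM, above every Stab1-/- library (28.9 to 42.0), and wildtype replicate 1, at 26.4 RPKM, lay below them all. Without that library Cyp8b1 was called lower in Stab1-/- (-0.99, edgeR adjusted p = 0.00672). Cyp7a1 had a log2 fold change of 0.67 (SE 0.34, 95% confidence interval -0.07 to 1.41, edgeR adjusted p = 0.254), with 37.7 ± 15.4 RPKM in Stab1-/- against 22.1 ± 12.7 in wildtype livers (n = 4 each). It was called higher only in the fit without wildtype replicate 2, the library with 40.5 RPKM (1.11, edgeR adjusted p = 0.0465). Both single-library results were picked out after the values were seen.

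The other 7 genes had 2-week log2 fold changes between -0.23 and 0.18. Slc27a5 stood at -0.23 (95% confidence interval -0.52 to 0.06) and Cyp27a1 at 0.18 (-0.05 to 0.42), the latter with 66.3 ± 6.72 RPKM in Stab1-/- against 55.0 ± 4.28 in wildtype livers (n = 4 each). Slc10a1 was at 0.03 (-0.23 to 0.29) and Nr1h4 at 0.01 (-0.29 to 0.31), so that at these sizes of error a change by more than 0.31 in either direction lies outside the intervals of both genes. Nr0b2 was at 0.05 (-0.41 to 0.51) and Cyp7b1 at 0.14 (-0.39 to 0.66). For Nr0b2 the 4 Stab1-/- libraries kept within 44.0 to 50.7 RPKM while the wildtype libraries ran from 24.2 to 60.8 RPKM. Abcb11 had -0.02 (-0.60 to 0.55), a value that turned to 0.43 without wildtype replicate 1 (edgeR adjusted p = 0.0757). In that replicate Abcb11 was at 225 RPKM, where all 4 Stab1-/- libraries (110 to 140 RPKM) exceeded the other 3 wildtype libraries (82.9 to 93.7 RPKM). With all libraries the groups overlapped, and this replicate was set aside after its values were seen. How many other rows part in this way was not counted.

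**Figure D4:**
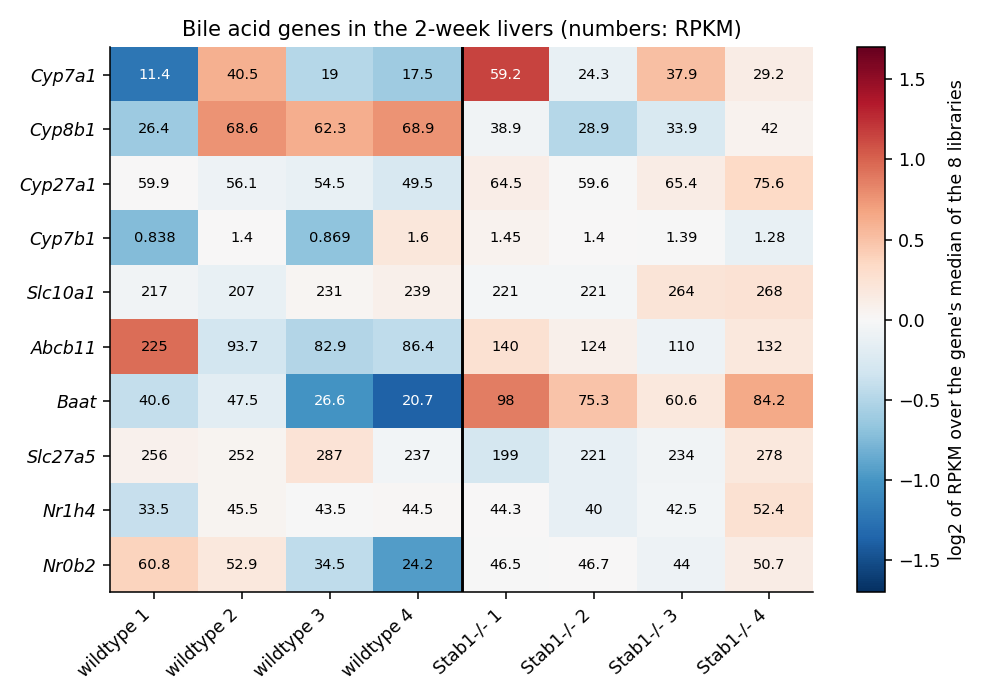
RPKM of the bile acid genes in the 8 2-week libraries, with colours for the log2 ratio to the median of the gene over the 8 libraries (red above, blue below). Baat is lower in every wildtype than in every Stab1-/- library, and wildtype replicate 1 has the lowest Cyp7a1, Cyp8b1, Cyp7b1 and Nr1h4 and the highest Abcb11 and Nr0b2.

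Wildtype replicate 1 held the lowest 2-week level of Cyp7a1 (11.4 RPKM), Cyp8b1 (26.4), Cyp7b1 (0.838) and Nr1h4 (33.5), and the highest of Abcb11 (225) and Nr0b2 (60.8). Each of these values lay outside the range of the other 7 libraries of that age. Without this library the wildtype log2 fold changes with age were 2.65 for Cyp7b1, 2.02 for Nr1h4 and 6.75 for Nr0b2. With it they were 2.51, 1.91 and 6.94. Outside the 10 genes it also stood apart in Slc51b, a subunit of the basolateral bile acid exporter, at 32.5 RPKM where the other 2-week wildtype libraries had 4.23 to 11.4, in Abcb1a, a multidrug exporter, at 7.10 against 2.27 to 2.58, and in Nr1i2, the xenobiotic receptor PXR, at 60.3 against 29.5 to 33.9. These genes were singled out after their values were seen. Its depth lay within the range of the others, and its summed hepatocyte markers were 130000 RPKM where the other wildtype 2-week libraries had 132000 to 154000. No label of this library sets it apart from the other wildtype libraries of its age.

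At E17.5 none of the genes was called between genotypes. edgeR's filter on low counts left 8 of the 10 genes, without Cyp7b1 and Nr0b2, and 0 of the 8 had an adjusted p under 0.05 in edgeR, DESeq2 or limma, where 0.366% of 13388 rows were called. At an unadjusted p under 0.05 there were 3 of the 8 (Cyp8b1, Slc27a5 and Nr1h4), where 12.9% of all tested rows passed. Cyp8b1 was 24.7, 22.3 and 22.1 RPKM in Stab1-/- and 16.2 to 21.0 RPKM in wildtype livers, the 3 Stab1-/- libraries thus above the 4 wildtype ones, with a log2 fold change of 0.39 (95% confidence interval 0.18 to 0.61, edgeR adjusted p = 0.156). Slc27a5 likewise had all Stab1-/- libraries (22.2 to 25.9 RPKM) above all wildtype libraries (at most 20.4), with 0.29 (0.09 to 0.49, edgeR adjusted p = 0.244). These 2 of 10 genes had groups that did not overlap, higher in Stab1-/-, as did 2.91% of all tested rows. Without Stab1-/- replicate 1 the fold changes were 0.36 for Cyp8b1 and 0.35 for Slc27a5, and without wildtype replicate 2, the library with pancreatic markers, they were 0.33 and 0.28. Nr1h4 was at 0.45 (0.02 to 0.87, edgeR adjusted p = 0.368), and without Stab1-/- replicate 1, in which Nr1h4 was 25.2 RPKM beside the intestinal markers, it was 0.19 (edgeR adjusted p = 0.766).

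The remaining E17.5 values were small against their errors. Baat, the gene called at 2 weeks, had a mean of 6.83 ± 0.386 RPKM in the Stab1-/- group (n = 3) and of 7.26 ± 0.543 in the wildtype group (n = 4), and its log2 fold change of -0.03 had a 95% confidence interval of -0.27 to 0.22. Cyp27a1 was at 0.03 (-0.29 to 0.35), Abcb11 at 0.05 (-0.22 to 0.31), Slc10a1 at 0.23 (-0.14 to 0.59) and Cyp7a1 at -0.13 (-0.71 to 0.44). The 2 genes that the filter left out were tested by edgeR without it. Cyp7b1 then had a log2 fold change of 0.89 (SE 0.52, edgeR adjusted p = 0.563) and Nr0b2 of 0.56 (SE 0.53, edgeR adjusted p = 0.709). Their summed reads per depth gave a ratio of Stab1-/- to wildtype of 1.81 for Cyp7b1 (95% counting interval 1.03 to 3.21, 32 and 24 reads) and of 1.42 for Nr0b2 (0.746 to 2.72, 22 and 21 reads). Of the 32 Cyp7b1 reads 18 came from Stab1-/- replicate 1, and without that library the ratio of Cyp7b1 was 1.19 (14 and 24 reads) and its log2 fold change 0.32 (edgeR adjusted p = 0.899).

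Whether the genotype effect itself differed between ages was tested as an interaction in 1 fit to all 15 libraries. None of the 10 genes was called in this test by edgeR, where 1.81% of 13885 rows were, and 3 of the 10 had an unadjusted p under 0.05, where 23.2% of the rows did. Baat came closest, with a genotype effect that was 1.21 higher at 2 weeks on the log2 scale (SE 0.31, edgeR adjusted p = 0.0513). It passed the threshold in DESeq2 (1.18, adjusted p = 0.00665), and in the limma fits and in edgeR with median-of-ratios or library-total scaling the adjusted p lay between 0.031 and 0.0495. Cyp8b1 had a difference of -1.11 (SE 0.33, edgeR adjusted p = 0.0791) and was called in DESeq2 (-1.15, adjusted p = 0.0228) and by edgeR without wildtype replicate 1 of the 2-week group (-1.35, adjusted p = 0.00225). Slc27a5 was at -0.49 (SE 0.18, edgeR adjusted p = 0.126). The 2-week and E17.5 effects of these 3 genes were 1.15 and -0.03, -0.75 and 0.39, and -0.23 and 0.29. Scaling by library totals moved the median of all rows from 0.01 to 0.12 in this comparison and the higher share of the calls from 44.2% to 71.6%.

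Ratios of bile acid genes within a library do not depend on scaling between libraries, and 6 of them are described without a test. How often ratios of other rows part the groups was not counted. Of single tested rows, 10.4% parted the 2-week genotypes with the higher values in Stab1-/-. The share with the higher values in wildtype is not given here. A ratio can part the groups in either direction, for which the share of single rows is at least that large. The ratio of Cyp8b1 to Cyp7a1 separated the 2-week genotypes, although neither gene was called. Its log2 value was 1.21, 0.76, 1.72 and 1.98 in the wildtype libraries and -0.60, 0.25, -0.16 and 0.53 in the Stab1-/- libraries, a mean of 1.42 ± 0.54 against 0.00 ± 0.49 (n = 4 each), with no overlap. Wildtype replicate 1, in which both genes were low, lay inside its group in this ratio. At E17.5 the same ratio was 0.70 ± 0.61 in wildtype (n = 4) and 1.22 ± 0.44 in Stab1-/- livers (n = 3), and the groups overlapped. The ratio of Baat to Slc27a5 was also apart at 2 weeks, at -2.66, -2.41, -3.43 and -3.51 in wildtype and -1.02, -1.55, -1.95 and -1.73 in Stab1-/-. This ratio contains the Baat difference given above and is not separate from it. At E17.5 it was -1.47 ± 0.12 in wildtype and -1.78 ± 0.18 in Stab1-/-, here with the lower values in Stab1-/- and again no overlap.

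**Figure D5:**
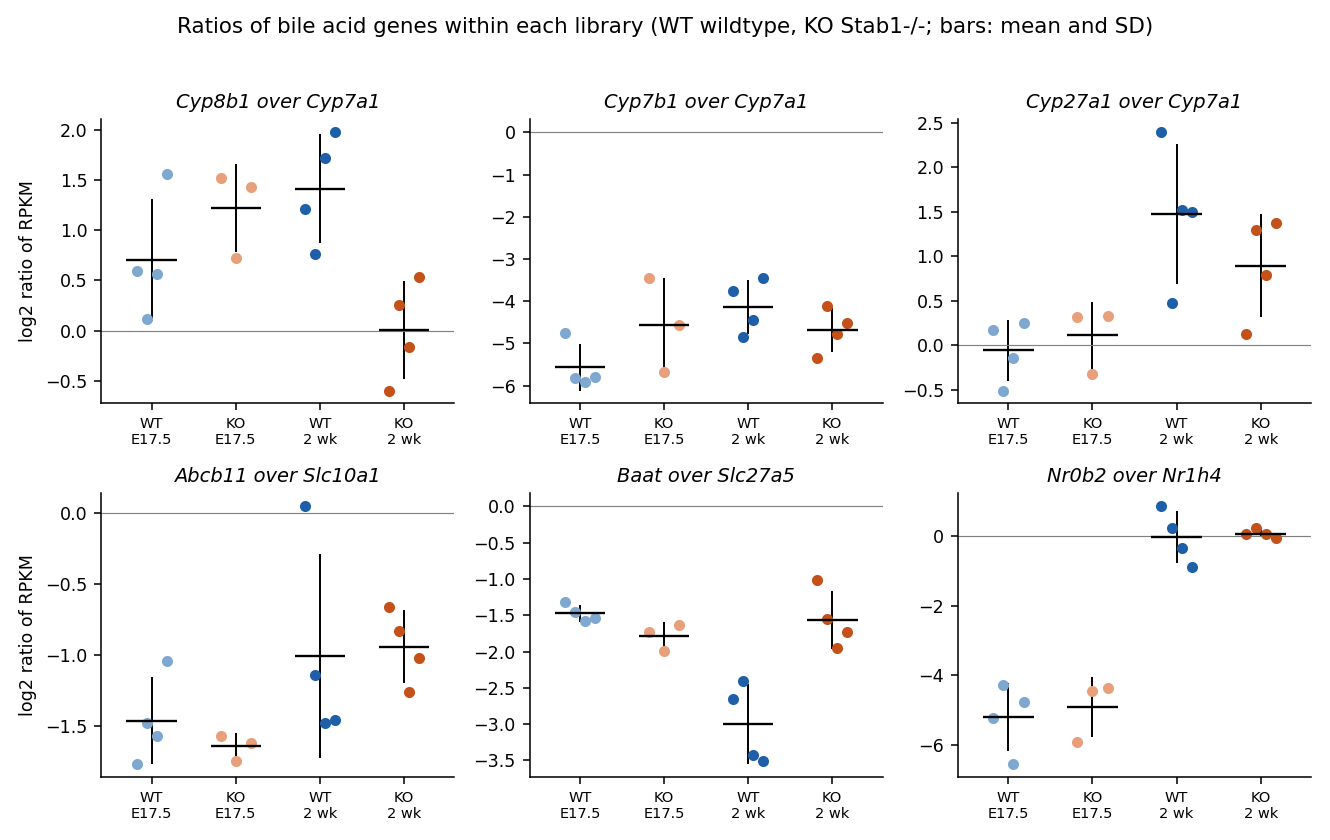
Log2 ratio of the RPKM of 2 bile acid genes within each library, for 6 ratios, with 1 point per library and bars for mean and SD. At 2 weeks the genotypes do not overlap in Cyp8b1 over Cyp7a1 and in Baat over Slc27a5, and Nr0b2 over Nr1h4 separates the ages.

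The other 4 ratios did not part the 2-week genotypes. Abcb11 over Slc10a1, the export pump against the uptake transporter, was -1.01 ± 0.72 in wildtype and -0.94 ± 0.26 in Stab1-/- 2-week livers, with wildtype replicate 1 at 0.05 and the other 3 wildtype libraries at -1.48 to -1.14. Nr0b2 over Nr1h4 was -0.03 ± 0.75 in wildtype and 0.07 ± 0.11 in Stab1-/- at 2 weeks, and -5.21 ± 0.98 and -4.91 ± 0.86 at E17.5. Cyp27a1 over Cyp7a1, the alternative against the classic route, went from -0.06 ± 0.35 at E17.5 to 1.47 ± 0.79 at 2 weeks in wildtype and from 0.11 ± 0.37 to 0.89 ± 0.58 in Stab1-/-. Cyp7b1 over Cyp7a1 went from -5.57 ± 0.55 to -4.13 ± 0.64 in wildtype and from -4.56 ± 1.11 to -4.69 ± 0.52 in Stab1-/-. At E17.5 Stab1-/- replicate 1 was at -3.45 in this ratio, and the mean of the other 2 libraries was -5.12, below the 2-week mean.

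A further 52 genes of bile acid synthesis, transport and regulation were listed in the table. With age 40 of 46 tested were called higher and 2 lower in wildtype, and 39 higher and 3 lower in Stab1-/-, where 71.9% and 72.3% of all tested rows were called. The transporter Slco1a4 (OATP1A4) rose most in both genotypes, from 17, 13, 3 and 4 reads at E17.5 to 1442 to 2051 reads at 2 weeks in wildtype. In Stab1-/- livers it had 0 reads in all 3 E17.5 libraries and 2766 to 3368 reads at 2 weeks, at least 1090-fold higher against a floor of 3 reads per library. The sterol exporter partners Abcg5 and Abcg8 rose by 7.79 and 6.84 in wildtype and by 6.60 and 5.60 in Stab1-/- on the log2 scale. The Stab1-/- values include E17.5 replicate 1, the library with intestinal markers, which held 81 reads of Abcg5 where the others had 11 and 16, and 96 of Abcg8 where the others had 34 and 32. Without it the increases in Stab1-/- were 7.95 and 6.25. Akr1c6, an aldo-keto reductase, rose by 5.53 and 7.45. The basolateral exporter Abcc4 (MRP4) was lower at 2 weeks, by -1.19 and -1.16, as was Tgfb1, a cytokine that restrains Cyp7a1, by -1.05 and -1.21. Klb, the co-receptor for the ileal hormone FGF15, was called lower in Stab1-/- (-0.47, edgeR adjusted p = 0.0114) and had -0.15 in wildtype (edgeR adjusted p = 0.351).

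Of the 46 other pathway genes tested between genotypes at 2 weeks, 3 were called, all higher in Stab1-/-, where 0.936% of all tested rows were called in that direction. Acox2, the peroxisomal oxidase that shortens the side chain of bile acid intermediates, was 138, 146, 149 and 143 RPKM in Stab1-/- and 76.3, 91.0, 94.2 and 99.0 RPKM in wildtype livers (log2 fold change 0.58, SE 0.11, edgeR adjusted p = 0.0229). Cyp2c70, the enzyme that makes muricholic acids in mice, was 1070, 901, 811 and 1010 RPKM against 672, 671, 456 and 462 RPKM (0.66, SE 0.15, edgeR adjusted p = 0.0373). Slco1a4 was 84.4, 73.5, 90.6 and 73.8 RPKM against 47.4, 52.1, 35.3 and 50.0 RPKM (0.71, SE 0.12, edgeR adjusted p = 0.012). In all 3 genes each Stab1-/- library lay above each wildtype library, as in 10.4% of all tested rows. Cyp2c70 and Slco1a4 have close paralogs, and how reads shared with them were assigned is uncertain. The call of Acox2 was lost without Stab1-/- replicate 2, 3 or 4 (edgeR adjusted p = 0.0646, 0.0548 and 0.0619), and that of Cyp2c70 in 5 of 8 fits that left out 1 library, while Slco1a4 stayed called in all 8. With GC-content offsets, an alternative added after seeing the data, the adjusted p of Slco1a4 was 0.13 and that of Cyp2c70 was 0.0714. Of 14 Kupffer and endothelial markers 2 were called lower at 2 weeks, the endothelial genes Kdr at -0.43 and Dnase1l3 at -0.64, where 221 of 12716 rows were. The median of this list was -0.10. Its Kupffer genes were not called, with Clec4f at 0.32, Cd5l at 0.26, Adgre1 at 0.25, Timd4 at 0.23, Vsig4 at 0.10 and Marco at -0.22. The 15 hepatocyte markers had a median of -0.25, with 6 of them at an unadjusted p under 0.05, as had 23.4% of all tested rows, and none called by edgeR. The part of these marker genes in the bile acid results was not tested.

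Acox2 was called again at E17.5, where 43 of the other pathway genes were tested and 2 were called higher in Stab1-/- (0.366% of all tested rows were called in either direction). It was 83.0, 82.6 and 84.7 RPKM in Stab1-/- and 57.5, 55.2, 55.0 and 53.0 RPKM in wildtype livers (log2 fold change 0.66, SE 0.08, edgeR adjusted p = 0.00696). The second was Nr5a2, which encodes LRH-1, an activator of Cyp7a1 and Cyp8b1 in the liver, with 8.33, 7.84 and 8.95 RPKM against 5.87, 6.07, 5.74 and 6.86 RPKM (0.51, SE 0.09, edgeR adjusted p = 0.0484). Its call was lost in 6 of 7 fits that left out 1 library. In the interaction 3 of the 46 genes were called by edgeR, where 1.81% of all tested rows were. Akr1c6, a hepatic hydroxysteroid dehydrogenase with close paralogs, was 9.23, 11.3 and 10.7 RPKM in Stab1-/- against 31.9, 34.5, 16.0 and 18.2 RPKM in wildtype at E17.5, and 2100, 1330, 1470 and 1320 against 1130, 1160, 757 and 622 RPKM at 2 weeks. Each Stab1-/- library was thus below each wildtype library before birth and above each at 2 weeks. The 2-week separation was in the direction that 10.4% of all tested rows showed. The share of rows apart in the E17.5 direction is not given here. The difference of the log2 effects of Akr1c6 was 1.92 (SE 0.37, edgeR adjusted p = 0.0255). Neither effect was called in itself, at -1.21 at E17.5 (edgeR adjusted p = 0.13) and 0.68 at 2 weeks (edgeR adjusted p = 0.079). Ephx1, the microsomal epoxide hydrolase, had 19.9 to 34.2 RPKM in Stab1-/- and 39.5 to 53.2 RPKM in wildtype at 2 weeks and 10.9 to 12.2 and 8.76 to 10.8 RPKM at E17.5 (-1.0, SE 0.24, edgeR adjusted p = 0.0461). The call of Ephx1 was lost in 12 of the 15 fits that left out 1 library, that of Akr1c6 in 4 and that of Slco1a4 in 2. The third was Slco1a4, whose fitted difference rests on the absence of reads in the E17.5 Stab1-/- libraries.

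Likeness was measured as the root mean square difference between 2 genes in centred log2(RPKM + 0.1) over the 15 libraries, which mostly reflects the step between ages. Slc10a1 and Nr1h4 were each other's nearest within the set (0.24), and Cyp27a1 was the nearest to Abcb11 (0.38), to Baat (0.49) and to Slc27a5 (0.56). Nr0b2 had no close partner among the 10, with Slc27a5 nearest at 1.45. Among all tested rows the nearest to Cyp27a1 were Phyh (0.12), Chchd10 and Rdh7 (0.13 each), and the nearest to Slc10a1 were Tmprss6 (0.12), Gc and Isoc2a (0.15 each). Cyp7a1 and Cyp8b1 had no row nearer than Ccdc30 (0.32) and Itih1 (0.30). For Abcb11 the nearest were Fmo5 (0.22) and Akr1d1 (0.25), the latter the reductase of the bile acid steroid ring, and for Slc27a5 they were BC024139 and Gstk1 (0.19 each).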

How the data were processed

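Total liver RNA was extracted with a column kit and the libraries were prepared at BGI, per the labels. The authors deposited 1 table with, for each gene and library, the count of unique reads, as the file headers name it, the gene length, the percent of the gene model with reads, also computed by the authors, and the RPKM, which the authors scaled to the gene length and to the reads counted on genes. Recomputed from the deposited counts, RPKM was the same within 7.68e-12 percent. A row without reads is marked by a dash and was read as 0. The aligner, the genome build and whether strand was used are not given in the sources used here.

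Counts were fitted with edgeR 4.0.16 (R 4.3.3, TMM, filterByExpr with a minimum count of 10, quasi-likelihood test, two-sided, Benjamini-Hochberg over all tested rows), within each age for the genotypes and over all 15 libraries for the ages and the interaction. No test for these libraries is named in the study's methods. Libraries of 1 group differed by more than sampling noise, with a chi-square per degree of freedom of at least 5.41. Alternatives were DESeq2 1.42.0, limma 3.58.1 on log2(RPKM + 0.1) and log2(RPKM + 1), other scalings, no filter, a replicate block, other library sets, each library left out, and, added after seeing the data, GC-content offsets and low-count genes or ratios without 1 library. On simulated data with 200 changed genes edgeR recovered 200 at 2 weeks with 6 false calls among 12734 genes. The changed genes were well expressed, all had the same large fold change up or down, and 1 fixed spread was used throughout. The simulation therefore does not show whether smaller changes, or changes in genes with a wider spread, would be called. A library's floor was 3 reads. The counting intervals and the floors cover counting error only. The confidence intervals and p-values of edgeR set a difference against the spread between the libraries of these animals.

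The 10 genes, the other pathway genes, the markers and the motifs were chosen with earlier results of these data known. Other pathway genes are named where called between genotypes or in the interaction, or among the 3 largest changes in each direction with age, and for likeness the nearest 3 rows count (those of Baat are not reported here). Positions come from GENCODE vM21 (GRCm38).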

Additional observations from a re-analysis of the deposited data

Results flagged for a closer look

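Of 66 sets of 4 values 5 had a single library far from the rest, and about 3.3 would be so by chance (1 in 20). In 3 of the 5 it was wildtype replicate 1 at 2 weeks, with Cyp8b1 at 26.4 RPKM (nearest library 62.3), Abcb11 at 225 RPKM (nearest 93.7) and Nr1h4 at 33.5 RPKM (nearest 43.5). At E17.5 wildtype replicate 4 had Nr1h4 at 11.2 RPKM (nearest 14.8), and wildtype replicate 1 had a log2 ratio of Cyp7b1 to Cyp7a1 of -4.75 (nearest -5.79), which rests on 10 reads of Cyp7b1.

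The genotype effect differed between ages by edgeR's interaction test in 3 other pathway genes, by 1.92 in Akr1c6, 6.76 in Slco1a4 and -1.0 in Ephx1 on the log2 scale. The value for Slco1a4 depends on how the 0 reads of the E17.5 Stab1-/- libraries are entered and is no bound.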

How the results depend on the processing

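The 10 bile acid genes stayed called higher at 2 weeks in both genotypes under all alternatives and with each library left out, and Baat at 2 weeks stayed called under all alternatives that kept every library (adjusted p 3.7e-05 to 0.0305). Over the member results the alternatives that kept every library left 379 values with the same sign and the same call. At the same sign 8 gained a call and 0 lost it, and 23 turned sign, none of them called. Leaving out 1 library gave 554, 6, 3 and 23. The cause of the moves below was not tested.

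The number of genes called at 2 weeks was 861 in DESeq2, 219 with limma on log2(RPKM + 0.1) and 703 in 1 fit to all 15 libraries, against 340 as designed. At E17.5 it was 230 in DESeq2 against 49. For the interaction it was 1028 in DESeq2 and 440 with limma on log2(RPKM + 1) against 251, and of the 10 bile acid genes 2 were called in DESeq2, 1 with median-of-ratios scaling, 1 with library totals and 1 in each limma fit. Leaving out 1 library gave 116 to 648 genes and 0 to 2 bile acid genes at 2 weeks, 27 to 46 genes at E17.5, and 30 to 684 genes and 0 to 2 bile acid genes for the interaction. The lowest 2-week count came without Stab1-/- replicate 1 and the highest without wildtype replicate 2.

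At 2 weeks same-numbered libraries of the genotypes had a mean correlation of 0.141, from 0.0233 to 0.204, against -0.0473 for differently numbered ones. At E17.5 it was -0.101, from -0.178 to 0.00044, against 0.0327. Not every library correlated best with its own number, and the labels do not say what a number marks. The numbers were therefore not taken as pairs, although all same-numbered values at 2 weeks lay above 0. With a replicate block 1181 genes were called at 2 weeks, 23 at E17.5 and 1088 for the interaction, with 2 bile acid genes in the last, Baat (1.28, adjusted p = 0.0234) and Cyp8b1 (-1.17, adjusted p = 0.0382). With the block and GC-content offsets it was 721 and 29. Acox2 at E17.5 was 0.62 with an adjusted p of 0.121 with the block.

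The values that turned sign lay near 0. At 2 weeks Abcb11 was 0.05 with library totals, 0.19 and 0.18 in limma (pseudocounts 0.1 and 1), 0.10 with the replicate block and 0.05 with the block and GC-content offsets. Cyp7b1 was -0.04 and Nr1h4 -0.01 with GC-content offsets, and both were -0.01 with the block added. At E17.5 Cyp27a1 was -0.03 with library totals, -0.01 in both limma fits and with GC-content offsets, -0.08 with the replicate block and -0.12 with both, and Abcb11 was -0.02 with library totals and -0.03 and -0.02 in limma. For the interaction Abcb11 was 0.07 with library totals, 0.21 in both limma fits and 0.04 with the block, and Nr0b2 was 0.03 with limma on log2(RPKM + 1). With 1 library left out the 2-week values ran from -0.16 to 0.43 for Abcb11, -0.05 to 0.10 for Slc10a1, -0.10 to 0.07 for Nr1h4, -0.14 to 0.25 for Nr0b2 and -0.01 to 0.34 for Cyp7b1. The E17.5 values ran from -0.07 to 0.03 for Baat, -0.08 to 0.13 for Cyp27a1, -0.10 to 0.15 for Abcb11 and -0.43 to 0.01 for Cyp7a1, and those of the interaction from -0.18 to 0.41 for Abcb11 and -0.27 to 0.07 for Slc10a1. With 3 to 4 libraries a group and 2 to 18 reads of Nr0b2 and Cyp7b1 at E17.5, the genotype values of these genes there carry wide errors. By edgeR without the filter they had log2 fold changes of 0.56 and 0.89, and by DESeq2 of 0.57 and 0.90, with no call.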
